A study of Homo sapiens with 22 samples.

Results

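Fatty acid oxidation genes were followed across renal proximal tubule epithelial cells (RPTEC) that had lost the histone methyltransferase SETD2, had it put back, or were treated with TGF-β. A list of 31 genes from fatty acid uptake to the electron-transfer flavoproteins was set by gene name, with earlier results of these data known, and 30 of them matched by Ensembl ID to the 36859 genes of the deposited table. ECHS1 was not analysed here. Of the 30, CD36 (at most 17.8), ACADL (at most 7.8) and ACOX2 (at most 11.7) did not reach 10 normalized counts in any 2 of the libraries, which left 27 genes that were tested.

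RPTEC are human kidney cells immortalized with hTERT, and RNA-seq was available for 22 libraries in 11 groups of 2. In 2% serum the groups were untreated wild type (WT), WT treated with TGF-β at 10 ng/ml for 72 h, the SETD2 knockout clones KO1 and KO2, and a group labelled KO2_Rescue. The groups in 10% serum were 2 rescue clones, Rescue1 and Rescue2, and WT lines that carried eGFP (the vector control), SOX2, OCT2 or PRRX1. Each library held about 7600000 to 18600000 reads, as estimated from the deposited values. The second KO1 library had the most estimated reads and the fewest genes above 0, 14082 against 14709 to 16115 in the others. It enters every comparison that uses KO1.

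KO1 and KO2 are single-cell clones cut in SETD2 with the same guide, and Rescue1 and Rescue2 are single clones of knockout cells that carry lentiviral, FLAG-tagged SETD2 under blasticidin selection. The transduced WT lines carry a lentiviral vector that untreated WT cells lack, so that vector and serum cannot be told apart between the 2% and 10% groups of WT cells. The TGF-β group is labelled 72 h and untreated WT 0 h, so time in culture and TGF-β cannot be told apart either. The labels do not say that duplicates came from separate cultures, and the p-values measure only the spread between such libraries.

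Fatty acids enter the cell through carriers such as CD36, are bound by proteins such as FABP3 and are activated to acyl-CoA by acyl-CoA synthetases. The carnitine shuttle carries them into mitochondria, where acyl-CoA dehydrogenases, the trifunctional protein, HADH and thiolases shorten the chain in repeated cycles and pass electrons through ETFA, ETFB and ETFDH to the respiratory chain. Peroxisomes shorten very long and branched chains, the nuclear receptor PPARA with its coactivator PPARGC1A drives transcription of many of these genes, and the pathway is the main fuel supply of the proximal tubule.

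SETD2 itself was read first as a check of the labels. Its normalized counts were 1852 and 2061 in WT, 1046 and 1130 in KO1, 1050 and 1052 in KO2, and 9764 to 10445 in the 4 libraries of Rescue1 and Rescue2. Both libraries labelled KO2_Rescue lay below KO2, at 834 and 820, and are called the libraries labelled KO2_Rescue below.

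Markers of differentiated proximal tubule were present only in part. LRP2, SLC22A6, SLC22A8 and HNF4A were at or under 3 normalized counts in all 22 libraries. The most abundant marker was PAX8, which other nephron segments also express, at 2322 and 3743 in WT, 6382 and 6561 in KO1, and 5056 and 5096 in KO2. In KO against WT 7 markers of the list were tested, of which 3 were higher and 1 was lower at an adjusted p under 0.05 (57.1%), beside 38.0% of all genes. Their log2 changes ran from -4.81 to 3.07 with a median of 0.28, so PAX8 does not stand for the list. The lowest change was -4.50 in KO1 and -5.11 in KO2.

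The summed level of 7 mesenchymal markers stood at 229908 in KO1 and 100745 in KO2 against 6634 in WT and 47099 after TGF-β, and nearly all of it in the KO clones was the proteoglycan DCN, at 94978 to 234809 counts there. Against WT, 3 of the 7 were higher in KO and 1 was lower, beside 38.0% of all genes, and the median change was 0.75. After TGF-β 3 were higher and 0 lower, beside 17.7% of all genes, and the median was 2.91. In KO against TGF-β 1 was higher and 2 were lower, beside 36.3% of all genes, with a median of -1.80. The mesenchymal sum was 1458 in Rescue1, 848 in Rescue2, 39735 in the libraries labelled KO2_Rescue and 2152 with eGFP. In rescue against KO 0 of the 7 were higher and 4 lower, beside 45.7% of all genes. The collagen COL1A1 had 11919 and 532 counts in the 2 WT libraries, so the WT sum of 6634 rested mostly on COL1A1 in the first WT library. The sums of WT and KO are thus made up of different genes. The summed level of 8 general renal epithelial markers stood at 12407 in KO1 and 17580 in KO2 against 23878 in WT and 20577 after TGF-β. It was 30573 in Rescue1, 28639 in Rescue2, 27276 in the libraries labelled KO2_Rescue and 18336 with eGFP, and KRT8 was the most abundant. Against WT 1 of the 8 was higher and 3 lower in KO, beside 38.0% of all genes. After TGF-β 0 were higher and 3 lower, beside 17.7%. The summed level of 4 endothelial markers stood at 22.6 in WT, 134 in KO1 and 151 in KO2, where most of it was the receptor KDR, at 103 to 145 counts in KO and 0.77 and 0 in WT, while PECAM1 was listed at 0 in 3 of the 4 KO libraries. Of the leukocyte markers, CD68 was the most abundant, at 147 and 106 counts in WT, 364 and 210 in KO1 and 190 and 145 in KO2, and CD3E was at or under 3 in every library. Summed adipocyte markers stayed at or under 7.77 in every group. The part of these marker differences in the results below was not tested.

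Sequence at 3 gene starts is shown because it sets apart members described below. HADHA and HADHB, the subunits of the trifunctional protein, are read in opposite directions from starts with 306 bases between them on chromosome 2 (26244632 and 26244939 in RefSeq). ACSL4 had the most counts of all members in the knockout clones, and ACSL5, of the same family, was lower there than in WT. The runs are GRCh38.p14 reference sequence upstream of RefSeq starts that touches no annotated exon, 5′ to 3′ on the plus strand for HADHA and HADHB (chr2:26244673-26244747) and ACSL5 (chr10:112375018-112375234) and on the minus strand for ACSL4 (chrX:109733404-109733478), with capitals on CG dinucleotides and on AGGTCA.
HADHA and HADHB: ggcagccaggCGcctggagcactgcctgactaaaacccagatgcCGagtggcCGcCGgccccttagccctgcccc
ACSL4: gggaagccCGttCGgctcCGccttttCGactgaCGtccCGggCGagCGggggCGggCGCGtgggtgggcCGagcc
ACSL5: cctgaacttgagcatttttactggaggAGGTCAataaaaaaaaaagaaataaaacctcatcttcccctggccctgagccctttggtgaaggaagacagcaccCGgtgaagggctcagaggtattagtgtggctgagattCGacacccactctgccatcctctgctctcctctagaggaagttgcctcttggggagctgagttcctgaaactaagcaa

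The run before ACSL4 held 12 CG in 75 bases and that before ACSL5 held 2 in 217. Over 300-base windows (250 bases before to 50 after a start), the ACSL4 window held 51 CG, more than 99.0% of all 35116 RefSeq windows, against a median of 14 for all windows and of 20 for the 40 windows of the 25 members that had any. In the same family ACSL3, lower in KO, had 41 CG, and ACSL5, also lower, had windows with 4 and 5. ACSL1, higher in KO, had 5 windows with 4 to 47. Whether CG content goes with the direction of change was not tested. AGGTCA, the half-site of nuclear receptors such as PPARA, was searched on both strands. It occurred in 13.8% of all windows and in 1 of the 40 member windows, 223 bases before an ACSL5 start. The other ACSL5 window did not hold it, and the run shown lies inside the annotated ACSL5 span, which begins at 112374116. Its direct repeat with 1 base of any kind between the copies is an exact consensus form of the PPAR response element. The repeat occurred in 0.0228% of all windows and in 0 of 40. The longer TCAAGGTCA, which like the repeat contains AGGTCA, occurred in 0.353% and 0 of 40. Both are so rare over all windows that 0 of 40 says nothing about the members. Looser matches and sites outside the windows were not searched. CACCTG, the E-box bound by SNAIL and ZEB factors, also searched on both strands, occurred in 20.6% of all windows and in 8 of 40, among them windows of PPARA, PPARGC1A, ACADVL and ACSL1.

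Levels of different genes were compared per kb of transcript, as a description. In WT the peroxisomal bifunctional enzyme HSD17B4 stood at 1060 normalized counts per kb, HADHA at 864, the flavoprotein subunits ETFA and ETFB at 830 and 821, and ACADVL, the dehydrogenase of very long chains, at 764. The rate-limiting carnitine palmitoyltransferase CPT1A stood at 5.21 per kb, PPARA at 30.9 and its coactivator PPARGC1A at 3.51. CPT1B, a related gene outside the list, stood at 90.1 per kb. A low value in this table is weak evidence of absence: the housekeeping gene HPRT1 was listed at 0 in 6 of the 22 libraries, and CPT1A in 3, SLC25A20 in 7 and PPARGC1A in 5.

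**Figure D1:**
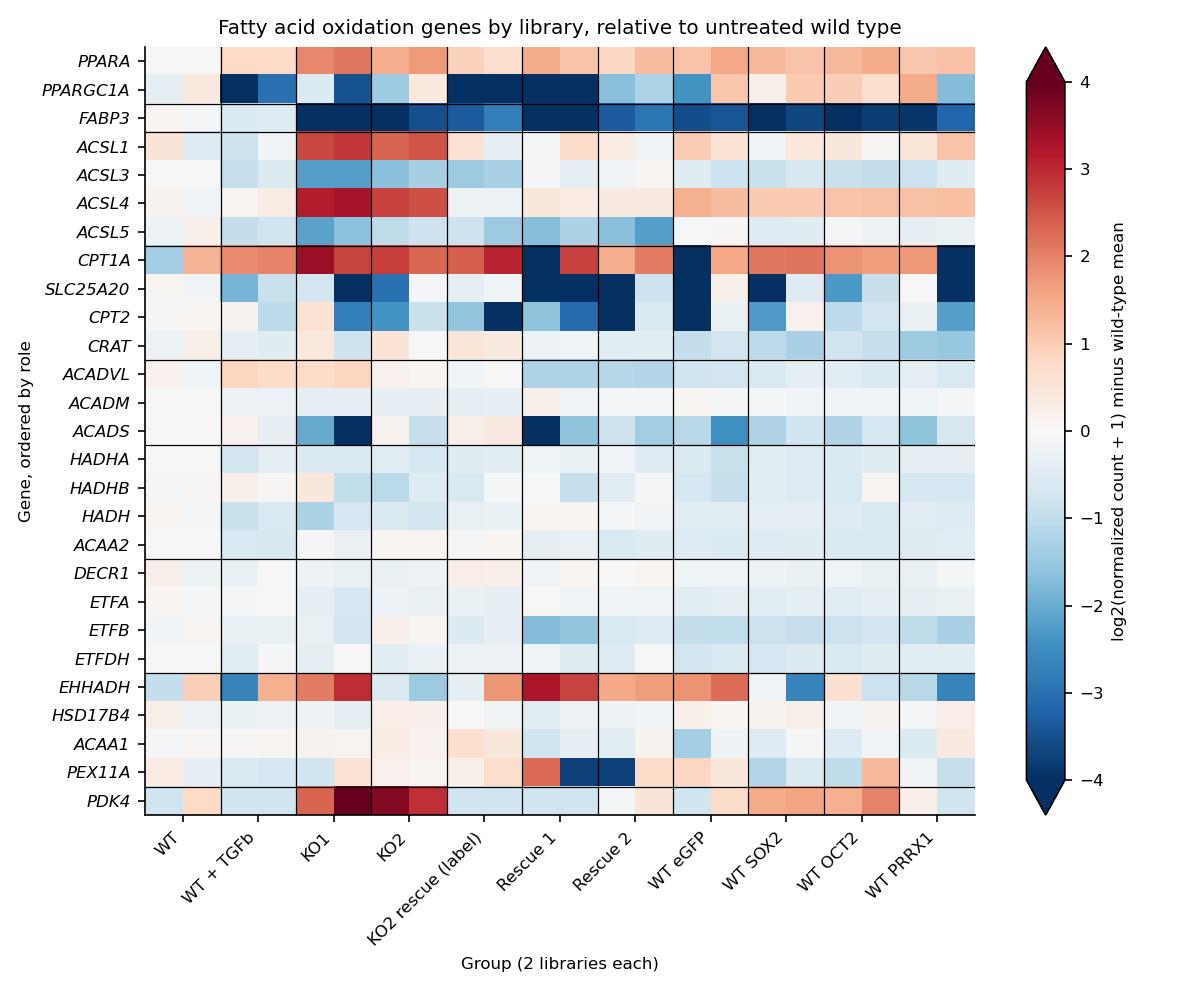
The heatmap shows log2(normalized count + 1) of the 27 tested genes (vertical axis, ordered by role, lines between roles) in all 22 libraries (horizontal axis, 2 per group), minus the mean of the 2 WT libraries, with colours limited at -4 and 4. ACSL1, ACSL4 and PPARA are high in KO1 and KO2, FABP3 is low in every group but WT and TGF-β, and CPT1A, SLC25A20, CPT2, EHHADH and PEX11A differ widely between duplicates.

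In the KO clones individual genes of the pathway moved far, in both directions, while the share of members that passed was near that of all genes. A gene passed where the adjusted p (limma's moderated test, Benjamini-Hochberg over all 14585 genes) was under 0.05. Averaged over both clones, 12 of 27 members passed against WT (44.4%), beside 38.0% of all genes. Higher were 5 members and lower 7, and 19.0% of all genes passed in each direction. With a log2 change over 1 as well, 7 members passed, beside 21.2% of all genes. The median log2 change of the tested members was -0.23 and that of all genes -0.01. RNA of a culture cannot tell fewer cells of one kind from less RNA per cell.

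The acyl-CoA synthetases, which activate fatty acids, changed in both directions. ACSL4, which prefers polyunsaturated fatty acids such as arachidonate, had 3102 and 2512 normalized counts in WT, 24730 and 27558 in KO1, and 18775 and 16770 in KO2. Every KO library was above both WT libraries, and the change was 2.95 on the log2 scale (SE 0.08, 7.71-fold, adjusted p = 1.28e-12).

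ACSL1, the major synthetase of liver, heart and fat, rose with it. Its counts were 519 and 258 in WT, 2337 and 2594 in KO1, and 1835 and 2091 in KO2. The groups did not overlap although the WT duplicates differed widely, and the log2 change was 2.58 (SE 0.34, adjusted p = 2.46e-05).

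The other synthetases fell. ACSL3, which sits on the endoplasmic reticulum and lipid droplets, had 2383 and 2334 counts in WT, 513 and 510 in KO1, and 740 and 938 in KO2, a log2 change of -1.85 (SE 0.15, adjusted p = 1.62e-07). ACSL5, found on mitochondria and the endoplasmic reticulum, had 241 and 325 in WT, 63.0 and 89.9 in KO1, and 139 and 156 in KO2, a log2 change of -1.40 (SE 0.23, adjusted p = 0.000185). For both genes every KO library was below both WT libraries.

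Per kb of transcript, the makeup of the synthetase mRNAs therefore differed between the lines. ACSL4 made up 48.2% ± 2.18 (SD, n = 2) of the summed level of the 4 genes in WT, 87.3% ± 0.0744 in KO1 and 83.3% ± 2.59 in KO2. ACSL3 made up 35.7% ± 3.17 in WT, 1.5% ± 0.119 in KO1 and 3.47% ± 0.745 in KO2. The makeup also differed from untreated WT in cells without a SETD2 guide. ACSL4 made up 64.0% ± 2.48 after TGF-β and 73.2% ± 1.25 with eGFP, and ACSL3 24.4% ± 1.1 and 13.6% ± 0.845. In Rescue1 and Rescue2 ACSL4 made up 58.8% ± 1.06 and 57.4% ± 0.897.

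**Figure D2:**
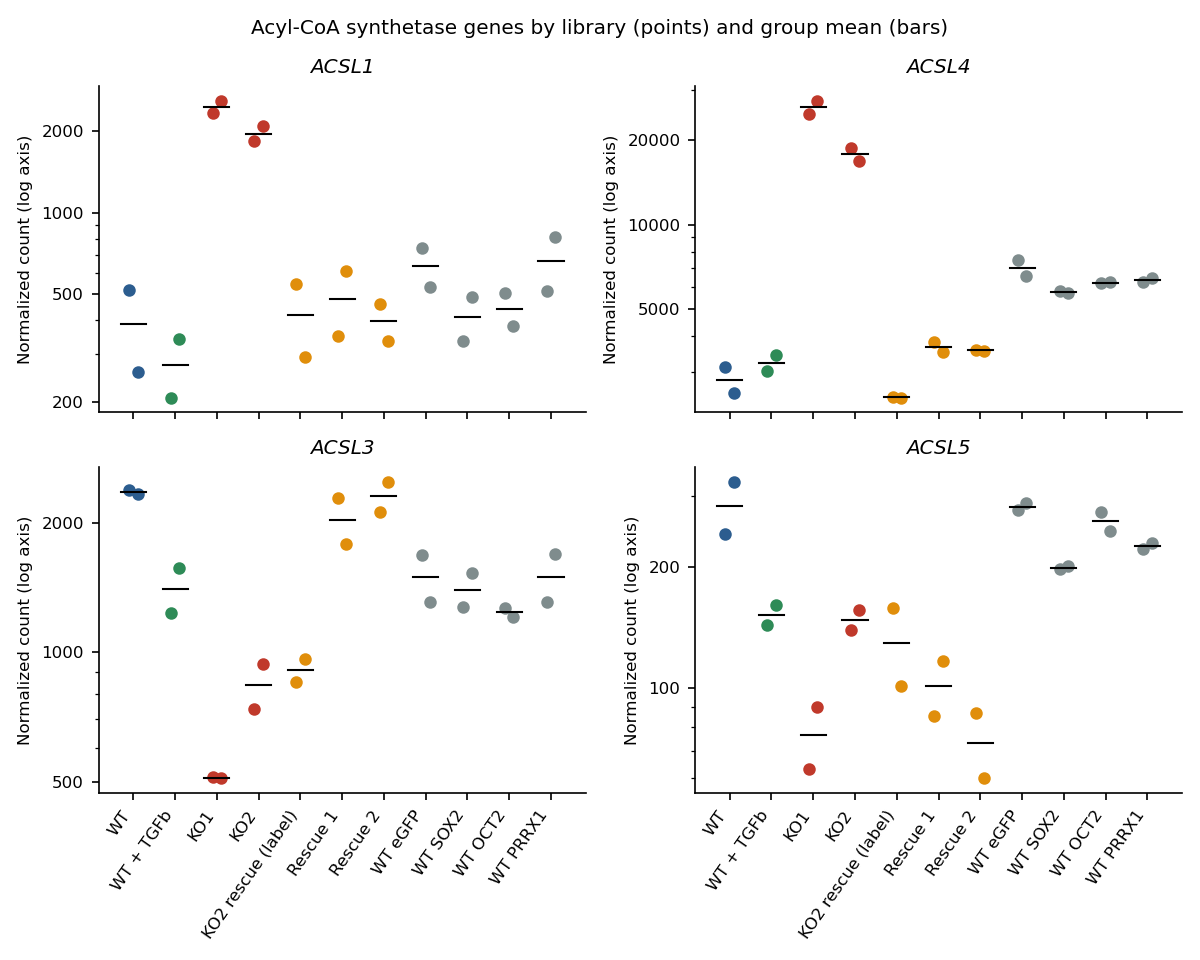
Normalized counts (vertical, log axis) of ACSL1, ACSL4, ACSL3 and ACSL5 are plotted for each group (horizontal), with a point for each library and a bar at the mean of the 2. ACSL1 and ACSL4 are highest in KO1 and KO2, ACSL3 is lowest in KO1, and ACSL5 is low in KO1, Rescue1 and Rescue2.

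Of the regulators, PPARA rose. It had 311 and 313 normalized counts in WT, 1194 and 1352 in KO1, and 865 and 1012 in KO2. The groups did not overlap, and the log2 change was 1.80 (SE 0.14, 3.48-fold, adjusted p = 1.2e-07). PPARGC1A, with 16.1 and 28.1 counts in WT and 1.01 to 28.5 in the KO libraries, did not pass (adjusted p = 0.391).

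FABP3, the fatty acid binding protein of heart and muscle, had 351 and 315 normalized counts in WT. It had 7.21 and 0 in KO1 and 10.9 and 28.2 in KO2, so that every KO library was far below WT. The log2 change was -5.51 (SE 0.64, adjusted p = 6.05e-06), with a size that depends on the pseudocount because 1 library is listed at 0. Without that library, the second of KO1, it was -4.75, and without the first it was -6.27.

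PDK4, the kinase that shuts pyruvate dehydrogenase and so favours fatty acids as fuel, was barely detected outside the KO lines. Its counts were 0 and 2.04 in WT, 7.74 and 39.8 in KO1, and 21.2 and 12.2 in KO2. It met the count minimum only through KO libraries, and its change is given as levels only. Leaving it out of every count was decided after its values were seen. In KO against WT 11 of 26 members then passed, beside 38.0% of all genes. Of these 4 were higher and 7 lower, and 6 had a log2 change over 1, beside 21.2% of all genes. In KO1 and KO2 against WT 13 and 10 passed, beside 39.8% and 28.9%. In KO against TGF-β 8 passed, beside 36.3%, and in rescue against KO 13 (7 higher, 6 lower), beside 45.7%. In the libraries labelled KO2_Rescue against KO2 5 passed, beside 10.3%. The counts in the other comparisons did not include it.

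Changes inside the mitochondrial cycle were smaller. HADH, which oxidizes medium and short hydroxyacyl-CoA, had 750 and 683 counts in WT, 299 and 447 in KO1, and 479 and 431 in KO2, a log2 change of -0.81 (SE 0.13, adjusted p = 0.000149). HADHA, the hydratase and dehydrogenase subunit of the trifunctional protein, had 2559 and 2528 in WT, 1749 and 1744 in KO1, and 1845 and 1567 in KO2, a change of -0.56 (SE 0.13, adjusted p = 0.00232). Neither gene overlapped between KO and WT. HADHB, the thiolase subunit whose gene reads away from HADHA on the other side of the run shown above, had 360 and 378 in WT and 175 to 506 in KO, and did not pass at -0.52 (SE 0.34, adjusted p = 0.259). The annotated spans of HADHA and HADHB overlap on opposite strands, so part of their reads may be hard to assign.

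ETFA, a subunit of the electron-transfer flavoprotein, fell by 0.39 on the log2 scale (SE 0.08, adjusted p = 0.00106), and ACADM, the medium-chain dehydrogenase, fell by 0.34 (SE 0.09, adjusted p = 0.0075). ETFA had 1994 and 1805 counts in WT and 1190 to 1612 in KO, and ACADM had 749 and 736 in WT and 564 to 596 in KO, without overlap. ACADVL was higher by 0.46 (SE 0.10, adjusted p = 0.00161), but its KO2 libraries at 1878 and 1757 overlapped WT at 1855 and 1484. Without the second WT library its change was 0.30 and the adjusted p 0.0523.

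In KO against WT the carnitine shuttle and the peroxisomal genes had 0 members that passed of 4 tested each, beside 38.0% of all genes. At an unadjusted p under 0.05 there were 0 in either list, and the share of all genes at that threshold is not given here. CPT1A had 6.42 and 48.1 counts in WT, 205 and 123 in KO1, and 129 and 91.9 in KO2. All 4 KO libraries lay above both WT libraries, and CPT1A did not pass at a log2 change of 2.80 with an SE of 1.84 (adjusted p = 0.261, and 0.0627 to 0.709 over the 15 alternatives). Without the first WT library, which holds 6.42 counts, its change was 1.43. CPT1A was also above both WT libraries after TGF-β, at 69.2 and 75.3, and in the libraries labelled KO2_Rescue, at 98.3 and 156. It had 0 and 125 counts in Rescue1 and 0 and 54.4 with eGFP. The carnitine carrier SLC25A20 ranged from 0 to 35.5 over all libraries, CPT2 from 0.826 to 162, and the carnitine acetyltransferase CRAT from 60.8 to 255. Among peroxisomal genes HSD17B4 ranged from 2020 to 3324 and the thiolase ACAA1 from 69.7 to 288, while EHHADH reached 58.8 and PEX11A 62.5.

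The split between higher and lower members moved with the scaling of the libraries. Giving every library the same total moved the median of all genes to -0.32 in KO against WT, and then 4 members were higher and 12 lower, beside 12.6% and 29.8% of all genes under that scaling. ETFA stood at -0.71 and ACADM at -0.66 under that scaling, and ACADVL no longer passed at 0.15 (adjusted p = 0.218).

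The 2 clones were also compared with WT one at a time, with the same WT libraries in both comparisons. KO1 had 14 members that passed of 27 (5 higher, 9 lower), beside 39.8% of all genes, and KO2 had 11 (4 higher, 7 lower), beside 28.9%. ACSL4 changed by 3.22 in KO1 and 2.67 in KO2, PPARA by 2.02 and 1.58, ACSL1 by 2.75 and 2.42, and ACSL3 by -2.20 and -1.50 (SE 0.10, 0.17, 0.40 and 0.18 in either clone). ACADVL, ETFB and the short-chain dehydrogenase ACADS passed against WT in KO1 and not in KO2. ETFB lost its pass in KO1 without the second WT library (adjusted p = 0.0872) or the second KO1 library (0.137), and ACADS without the second KO1 library (0.142). ACADM lost it in KO1 without the first WT (0.0563) or the first KO1 library (0.0599).

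Small changes in KO2 also rested on single libraries. ACSL5, at -0.92 in KO2, lost its pass without the second WT (0.142) or the first KO2 library (0.0977), and HADHA, at -0.58, without the second KO2 library (0.0774). ETFA, at -0.26, lost it without the first WT (0.234) or either KO2 library (0.0899 and 0.182), and ACADM, at -0.33, without any of the 4 (0.0777 to 0.107). Fewer members passed in KO2 when any single library was left out, and the share of all genes in those fits is not given here.

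Tested directly, 9 of 27 members differed between KO1 and KO2, beside 16.0% of all genes. No member passed with only the groups compared in the fit. ACSL4 was higher in KO1 by 0.56 (SE 0.10, adjusted p = 0.00124) and ACADVL by 0.67 (SE 0.11, adjusted p = 0.00103), with KO1 at 2786 and 2982 counts of ACADVL against 1878 and 1757. Over the alternatives ACSL4 ran from 0.30 to 0.64 and ACADVL from 0.29 to 0.71, and neither passed in all of them. ETFB was lower in KO1 by -0.67 (SE 0.14, adjusted p = 0.00547), with 581 and 432 counts against 823 and 770, and lost its pass without the second KO1 library (0.061). The remaining 6, which were FABP3, ACADS, ACSL5, ACSL3, HSD17B4 and ACAA2, were lower in KO1, and each lost its pass without 1 or more single libraries. The number that passed also moved with single libraries, and the share of all genes in those fits is not given here.

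**Figure D3:**
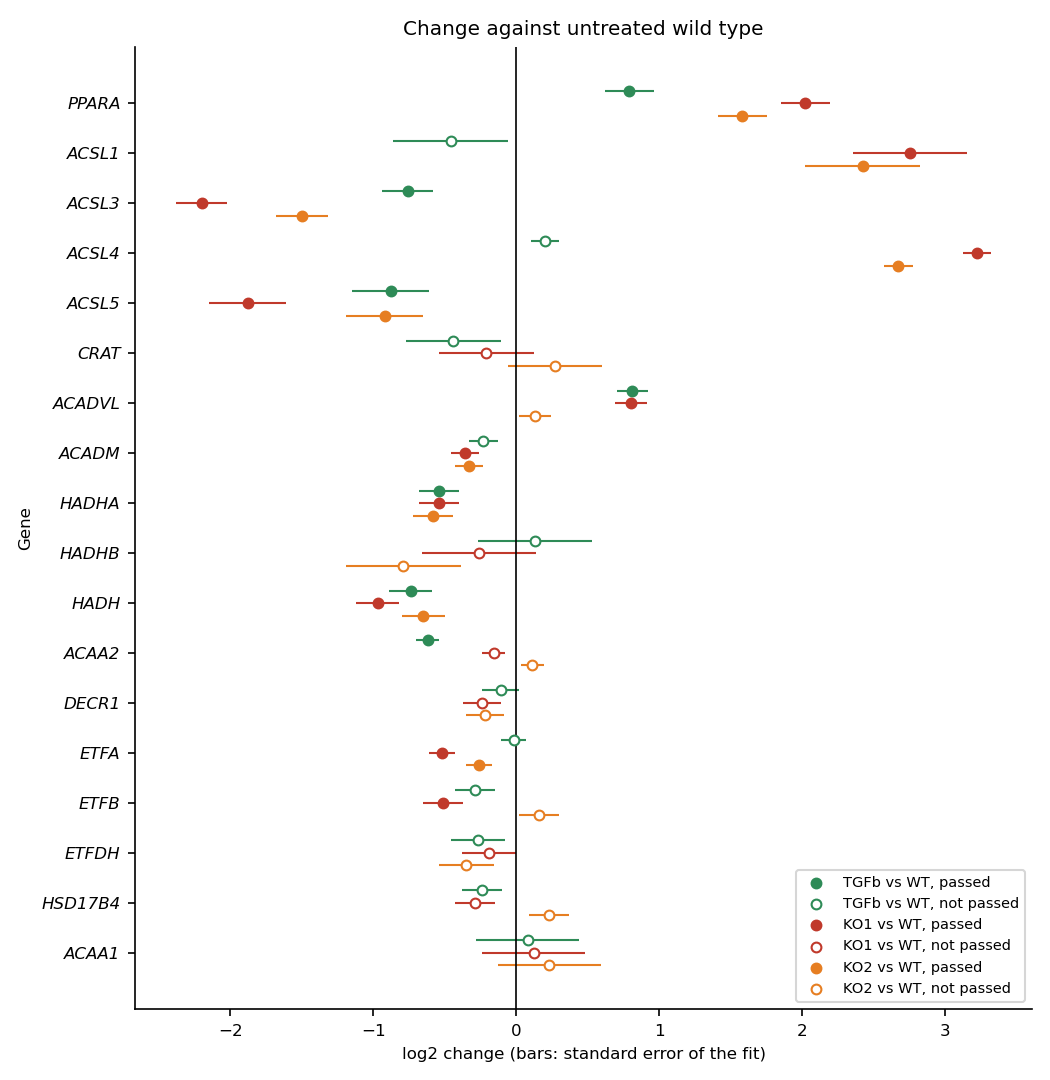
Log2 changes against WT (horizontal axis) with the standard error of the fit (bars) are shown for the 18 tested members with at least 10 normalized counts in all 22 libraries (vertical axis), for TGF-β, KO1 and KO2. Filled points passed. ACSL4 lies at 3.22 in KO1, 2.67 in KO2 and 0.20 with TGF-β, while HADHA lies at -0.54, -0.58 and -0.54.

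After TGF-β treatment of WT cells 7 of 27 members passed, each by less than 1 on the log2 scale, beside 17.7% of all genes. Higher were 2, PPARA and ACADVL, beside 8.50% of all genes, and lower were 5, beside 9.22%. The median change of the members was -0.44, and that of all genes was 0. With only the groups compared in the fit, where fewer libraries estimate the spread, no member passed.

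PPARA had 538 and 540 normalized counts with TGF-β against 311 and 313 in WT, a log2 change of 0.79 (SE 0.17, adjusted p = 0.00391). ACADVL had 3017 and 2790 against 1855 and 1484, a change of 0.81 (SE 0.11, adjusted p = 0.000161). In both genes the treated libraries were above the untreated ones.

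The genes that fell were 2 synthetases and 3 enzymes of the mitochondrial cycle. ACAA2, the mitochondrial thiolase, had 1171 and 1170 counts with TGF-β against 1789 and 1822, a change of -0.62 (SE 0.08, adjusted p = 8.22e-05). HADH had 388 and 471 against 750 and 683, a change of -0.74 (SE 0.15, adjusted p = 0.00296). ACSL3, at 1233 and 1575 counts, fell by 0.76 (SE 0.18, adjusted p = 0.00714).

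ACSL5, at 143 and 161 counts, fell by 0.88 (SE 0.27, adjusted p = 0.034), and HADHA, at 1524 and 1993, fell by 0.54 (SE 0.14, adjusted p = 0.0165). These falls rested on single libraries. ACSL3 lost its pass without the first TGF-β library (adjusted p = 0.0949), ACSL5 without the second WT library (0.248) or either TGF-β library (0.173 and 0.0851), and HADHA without either WT library (0.0616 and 0.0702) or the first TGF-β library (0.206). Fewer members passed without the first TGF-β library, and the share of all genes in that fit is not given here. With every library at the same total, the median of all genes was -0.20. Under that scaling 2 members were higher and 9 lower, beside 4.87% and 16.0% of all genes.

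ACSL4 had 3016 and 3423 counts after TGF-β, which overlapped WT at 3102 and 2512, and ACSL1 had 207 and 341 against 519 and 258. Compared with the TGF-β libraries, 9 of 27 members passed in KO, beside 36.3% of all genes. ACSL1 was higher in KO by 3.04 (SE 0.34, adjusted p = 5.37e-06), ACSL4 by 2.74 (SE 0.08, adjusted p = 2.62e-12), PPARA by 1.02 (SE 0.14, adjusted p = 4.89e-05) and ACAA2 by 0.60 (SE 0.07, adjusted p = 8.81e-06). FABP3, at 229 and 234 counts with TGF-β, was lower in KO by -4.99 (SE 0.64, adjusted p = 1.82e-05). PDK4 was listed at 0 in both TGF-β libraries. The other 3 were ACSL3 at -1.09, ETFA at -0.37 and ACADVL at -0.34, the last of which lost its pass without the first TGF-β library (adjusted p = 0.131).

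**Figure D4:**
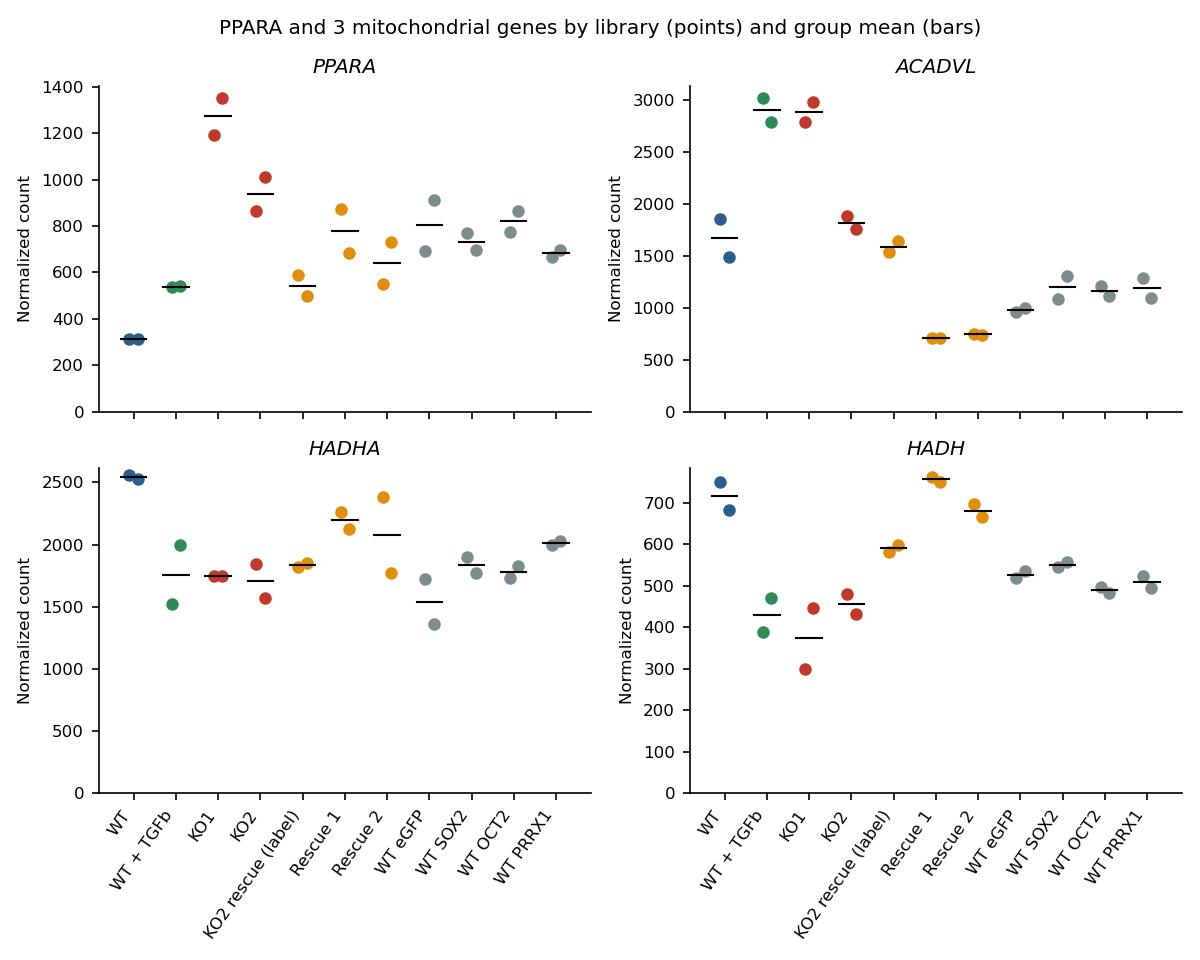
Normalized counts (vertical axis, from 0) of PPARA, ACADVL, HADHA and HADH are plotted for each group (horizontal axis), with a point for each library and a bar at the mean of the 2. PPARA is lowest in WT at 311 and 313, ACADVL is lowest in Rescue1 and Rescue2 at 710 to 749, and HADH is higher in WT, Rescue1 and Rescue2 than in KO1, KO2 and TGF-β.

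Putting SETD2 back was compared with its loss as the mean of Rescue1 and Rescue2 against the mean of KO1 and KO2. The rescue clones grew in 10% serum and the KO clones in 2%, so serum and SETD2 cannot be told apart in this comparison. The mean was taken over both KO clones, whichever of them the rescue clones were made from. KO1 and KO2 differed in 9 of 27 members, so differences between clones enter this comparison as well. Of 27 members 14 passed, beside 45.7% of all genes, with 7 higher and 7 lower, beside 22.5% and 23.2%. The KO libraries are those used against WT above, and values are given side by side without an overlap.

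ACSL4 had 3819, 3529, 3577 and 3565 normalized counts in the rescue libraries against 16770 to 27558 in KO. The groups did not overlap, and the log2 change was -2.57 (SE 0.07, 5.94-fold lower, adjusted p = 5.14e-13). ACSL1 had 351, 611, 458 and 336 against 1835 to 2594, a change of -2.36 (SE 0.28, adjusted p = 6.46e-06). ACSL3 had 2282, 1788, 2118 and 2494 against 510 to 938, a change of 1.72 (SE 0.12, adjusted p = 2.87e-08). ACSL5 stayed low, at 59.8 to 117 counts in the rescue libraries against 63.0 to 156 in KO, and did not pass at -0.31 (SE 0.19, adjusted p = 0.2).

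HADH had 761, 750, 697 and 664 counts in the rescue libraries against 299 to 479 in KO. The change was 0.81 (SE 0.11, adjusted p = 1.71e-05), without overlap. ACADM rose by 0.32 (SE 0.07, adjusted p = 0.00224) and ETFA by 0.28 (SE 0.06, adjusted p = 0.00239).

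ACADVL fell in both rescue clones. It had 710, 710, 749 and 739 counts against 1757 to 2982 in KO, a change of -1.65 (SE 0.08, adjusted p = 4.13e-10). ETFB had 216 and 241 in Rescue1 and 471 and 496 in Rescue2 against 432 to 823 in KO, a change of -0.93 (SE 0.10, adjusted p = 2.84e-06). ETFB thus overlapped KO in Rescue2 and lay below every KO library in Rescue1.

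PPARA had 551 to 875 counts in the rescue libraries against 865 to 1352 in KO, a change of -0.64 (SE 0.12, adjusted p = 0.00041), and the groups overlapped. FABP3 had 10.9 to 44.3 counts in the rescue libraries, the lower values in Rescue1, against 0 to 28.2 in KO and 351 and 315 in WT. Its change of 1.57 (SE 0.52, adjusted p = 0.0232) was lost without the second KO1 library (0.0874), the first KO2 library (0.0998), the second Rescue1 library (0.0528) or the second Rescue2 library (0.0696).

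PDK4 was listed at 0 in both Rescue1 libraries and at 0.691 and 1.5 in Rescue2. ACAA2 fell by 0.41 (SE 0.06, adjusted p = 3.77e-05) and HADHA and DECR1, an auxiliary reductase for unsaturated chains, rose by 0.30 and 0.25 (adjusted p = 0.0262 and 0.0476). HADHA lost its pass without the first or second KO1 library (0.0508 and 0.055), the second KO2 (0.107), the first Rescue1 (0.0748) or the first Rescue2 library (0.139). DECR1 lost it without any of 7 of the 8 libraries in turn, with adjusted p from 0.0517 to 0.165.

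Same-total scaling moved the median of all genes to 0.37 in this comparison. It left 8 members higher and 5 lower, beside 37.4% and 13.4% of all genes, with PPARA at -0.24 (adjusted p = 0.117) and ACAA2 at -0.01 (adjusted p = 0.904).

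The rescue clones were also set beside WT cells transduced with eGFP, which share their serum but not their selection. Of 27 members 8 passed, beside 29.5% of all genes, with 4 higher and 4 lower, beside 14.9% and 14.6%. ACSL5 had 85.4, 117, 86.9 and 59.8 counts in the rescue libraries against 276 and 287 with eGFP, a change of -1.72 (SE 0.23, adjusted p = 5.11e-05). ACSL4 had 3529 to 3819 against 7502 and 6539, a change of -0.95 (SE 0.08, adjusted p = 9.28e-07). ACADVL had 710 to 749 against 958 and 994, a change of -0.43 (SE 0.10, adjusted p = 0.00439). None of these 3 overlapped.

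The other 5 had smaller margins. ACSL3 was higher by 0.54 (adjusted p = 0.0149), HADHA by 0.47 (0.00996), HADH by 0.45 (0.018) and ETFA by 0.28 (0.0147), and HSD17B4 was lower by -0.39 (0.0279). Each lost its pass without single libraries: ACSL3 without the first Rescue1 (0.0509) or second eGFP library (0.204), HADHA without the second eGFP (0.176), HADH without either eGFP (0.121 and 0.0694) and ETFA without the first eGFP library (0.13). HSD17B4 lost it without the first Rescue1 (0.0831), the first Rescue2 (0.0725) or either eGFP library (0.215 and 0.062). Fewer members passed without the second eGFP library, and the share of all genes in that fit is not given here. With the same total for every library 6 members were higher and 3 lower, beside 18.8% and 11.8% of all genes.

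The libraries labelled KO2_Rescue grew in 2% serum like KO2. Against KO2, 6 of 27 members passed (1 higher, 5 lower), beside 10.3% of all genes. ACSL4 had 2434 and 2424 counts against 18775 and 16770 in KO2, a change of -2.87 (SE 0.10, adjusted p = 1.8e-10), and both libraries lay below every other library of the series. ACSL1 had 546 and 292 against 1835 and 2091, a change of -2.29 (SE 0.40, adjusted p = 0.00138). PPARA had 588 and 498 against 865 and 1012, a change of -0.79 (SE 0.17, adjusted p = 0.00605).

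ACSL3, by contrast, had 853 and 965 counts in the libraries labelled KO2_Rescue and 740 and 938 in KO2, and did not pass at 0.12 (SE 0.18, adjusted p = 0.781). PDK4 was listed at 0 in both against 21.2 and 12.2 in KO2. ETFB was lower by -0.60 (adjusted p = 0.0151) and DECR1 higher by 0.46 (adjusted p = 0.0436). Fewer members passed when any single library of the 4 was left out, and the share of all genes in those fits is not given here. PPARA lost its pass without the second KO2 (0.0697) or the second library labelled KO2_Rescue (0.0784), ETFB without either KO2 (0.108 and 0.0527) or the first labelled KO2_Rescue (0.14), and DECR1 without any of the 4 (0.123 to 0.199).

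WT cells transduced with eGFP differed from untreated WT in 11 of 27 members (2 higher, 9 lower), beside 26.6% of all genes. FABP3 had 27.5 and 29.8 counts with eGFP against 351 and 315, a change of -3.49 (SE 0.74, adjusted p = 0.0025). PPARA had 692 and 914 against 311 and 313, a change of 1.35 (SE 0.17, adjusted p = 2.83e-05). ACSL4 had 7502 and 6539 against 3102 and 2512, a change of 1.33 (SE 0.10, adjusted p = 2.02e-07). None of these 3 overlapped between the groups. The levels of all 3 thus differed between WT cultures that carried no SETD2 guide, and the eGFP and KO comparisons share the same WT libraries.

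The other 8 fell by less. ETFB fell by 0.97, ACADVL by 0.77, HADHA by 0.74, ACSL3 by 0.67, ETFDH by 0.66, ACAA2 by 0.54, HADH by 0.44 and ETFA by 0.39 on the log2 scale (adjusted p from 0.000143 to 0.0425). HADH and ETFDH, the oxidoreductase that hands electrons to ubiquinone, lost their pass without single libraries. HADH did so without any of the 4 (0.0712 to 0.187), ETFDH without either WT (0.0668 and 0.0749) or the first eGFP library (0.13), and ACSL3 without the second eGFP library (0.117).

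The transcription factors SOX2, OCT2 and PRRX1 moved 0 members each against eGFP by limma's test, beside 0.0206%, 0.0411% and 0.0480% of all genes. At an unadjusted p under 0.05 there were 3, 1 and 3 members, beside 6.76%, 7.03% and 4.61% of all genes. ACSL4 ranged from 5729 to 6450 counts over these 6 libraries and PPARA from 667 to 866.

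Between Rescue1 and Rescue2, 1 of 27 members passed, beside 1.52% of all genes. It was ETFB, at 216 and 241 counts in Rescue1 and 471 and 496 in Rescue2, a change of -1.08 (SE 0.14, adjusted p = 0.000518). ETFB did not pass with only the groups compared in the fit.

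Genes next to the pathway were counted in KO against WT, with the same 38.0% of all genes as background. Of 35 other oxidation genes tested 2 were higher and 8 lower, with a median of -0.29. AMACR, the racemase for branched chains, had 722 and 809 counts in WT and 147 to 269 in KO (-2.01, SE 0.16, adjusted p = 9.62e-08). PNPLA2, the triglyceride lipase that releases fatty acids from droplets, had 537 and 468 in WT and 1253 to 2294 in KO (1.65, SE 0.31, adjusted p = 0.000641). In both genes KO and WT did not overlap. AMACR was also low in every other group, at 189 and 225 after TGF-β, 174 to 218 in the rescue clones and 252 and 289 with eGFP.

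Fatty acid synthesis genes had 0 higher and 5 lower of 12 tested, with a median of -0.61. ELOVL5, an elongase of polyunsaturated chains, had 238 and 154 counts in WT and 39.8 to 77.0 in KO (-1.65, SE 0.25, adjusted p = 8.95e-05). With TGF-β 3 of these genes were higher and 0 lower, beside the 8.50% and 9.22% of all genes given above, and ELOVL5 stood at 383 and 351.

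Of 13 nuclear receptors and coactivators 1 was higher and 1 lower. PPARG, the receptor of fat cells, had 12.8 and 20.8 counts in WT and 5.65 or less in KO (adjusted p = 0.00752). Of 14 known PPAR targets outside the pathway only 4 were tested, of which 1 was higher and 0 lower, with a median of -0.12. The lipase inhibitor ANGPTL4 had 8.17 and 2.52 counts in WT, 400 and 358 in KO1, 35.0 and 36.6 in KO2 and at most 4.63 in Rescue1 and Rescue2. It was higher in KO1 (6.06, SE 1.07, adjusted p = 0.000341) and did not pass in KO2 (2.70, adjusted p = 0.0748), so that its pass in the mean of both clones (4.38, adjusted p = 0.00154) rested on KO1. After TGF-β it had 45.5 and 61.1 counts, above both KO2 libraries, and did not pass (3.24, adjusted p = 0.0501).

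Downstream of the pathway, 1 tricarboxylic acid cycle gene was higher and 4 lower of 16, with a median of -0.01. FH, the enzyme that hydrates fumarate, had 1636 and 1884 counts in WT and 646 to 945 in KO (-1.14, SE 0.09, adjusted p = 1.1e-07). Of 14 peroxisome biogenesis genes 3 were higher and 2 lower. Among 11 genes of the pyruvate dehydrogenase switch 4 were higher and 4 lower, and the mitochondrial pyruvate carrier subunit MPC2 had 2109 and 2449 counts in WT and 542 to 760 in KO (-1.71, SE 0.13, adjusted p = 7.85e-08). MPC2 was also below WT elsewhere, at 915 and 976 after TGF-β, 716 to 791 in the rescue clones and 1353 and 1037 with eGFP.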

How the data were processed

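RNA-seq of 22 RPTEC libraries was read from the table that the authors deposited. Per the labels and methods they quantified reads with Salmon 1.9.0 against hg38 and used DESeq2 1.26.0. The deposited log2 values (36859 genes, 11.32 to 21.28) share 1 lowest value in every library and were read as variance-stabilized normalized counts, a transformation not given in the sources used here. They were inverted to normalized counts, which are scaled by the authors' size factors. The plan had assumed normalized counts, and its test was kept.

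Gene symbols, spans and transcript lengths came from GENCODE release 44 on GRCh38 (33878 genes matched), and windows at gene starts from RefSeq GRCh38.p14. limma 3.58.1 in R 4.3.3 tested log2(normalized count + 1) with a trend of variance on expression, in 1 fit of all 22 libraries with a mean per group, for 14585 genes that reached 10 normalized counts in 2 or more libraries, with Benjamini-Hochberg adjustment. Fold changes on this scale understate changes of low genes. A gene passed at an adjusted p under 0.05, and a count with an absolute log2 change over 1 as well is given where stated. In a simulation of KO1 against WT over 14585 genes, 200 of 200 genes changed by 2 on the log2 scale passed, as did 13 unchanged genes. The changed genes had a mean of at least 50 normalized counts, and all genes were given the same dispersion. Whether lower genes, genes listed at 0 in some libraries or smaller changes would pass was not simulated.

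Members, lists and tests were chosen with earlier results of these data known. Named were members that passed in the main comparisons, up to 3 per role and comparison, and of other lists up to 3. Duplicates differed by a median of 0.0644 to 0.181 (absolute log2) over genes whose mean reached 1000 normalized counts. The widest spread, 0.181, was in WT, the reference of most comparisons against KO and TGF-β. Total normalized counts ran from 11674491 to 16758645. Replicate numbers did not pair libraries (correlations of deviations from -0.14 to 0.10 over 55 pairs of groups). Figures were drawn with matplotlib 3.10.9. Not all marker genes are reported here.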

Additional observations from a re-analysis of the deposited data

Results flagged for a closer look

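Of the members that passed between clones (limma, Benjamini-Hochberg over all genes), 3 also differed by more than 1 on the log2 scale. FABP3 differed between KO1 and KO2 by -2.70 on the log2 scale (SE 0.74, adjusted p = 0.0217), with 7.21 and 0 normalized counts in KO1 and 10.9 and 28.2 in KO2. ACADS differed by -2.87 (SE 0.93, adjusted p = 0.0488), with 4.56 and 0 in KO1 and 23.9 and 11 in KO2. The second KO1 library also had the fewest genes above 0 of all libraries. Both passes were lost without the second KO1 library, which lists each gene at 0 (adjusted p = 0.215 and 0.355), and also without the second KO2 library (0.192 and 0.0929), and that of ACADS without the first KO2 library (0.236). ETFB differed between Rescue1 and Rescue2 by -1.08 (SE 0.14, adjusted p = 0.000518), in 2 of 2 libraries of either clone, and passed without any single library of the 4.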

How the results depend on the processing

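Under the alternatives, the 102 changes of single genes that passed gave 1432 further values, of which 1281 still passed in the same direction, 151 no longer passed and 0 turned direction. With only the groups compared in the fit, the number of members that passed was 0 for TGF-β, 8 for KO1 and 7 for KO2 against WT, 3 for the libraries labelled KO2_Rescue against KO2, 5 for eGFP against WT, and 0 for KO1 against KO2 and for Rescue1 against Rescue2, where fewer libraries estimate the spread. At an unadjusted p under 0.05 those 3 counts of 0 were 10, 8 and 6. The shares of all genes under these fits are not given here, so these counts are not compared with all genes. With every library at the same total, 11 passed for TGF-β.

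Leaving out each library in turn, the number ranged from 4 to 7 for TGF-β, 11 to 15 for KO1, 7 to 10 for KO2 and 12 to 14 for KO against WT, from 8 to 12 for KO against TGF-β, 12 to 14 for rescue against KO, 5 to 8 for rescue against eGFP, 3 to 4 for the libraries labelled KO2_Rescue, 9 to 11 for eGFP, 3 to 10 for KO1 against KO2 and 1 to 1 for Rescue1 against Rescue2. With a lone library left in a group, its spread was taken from the other groups. The shares of all genes without each library are not given here, so these ranges are not compared with all genes.

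With the replicate number as a block, which did not pair the libraries, ACADS in KO1 against KO2 (adjusted p = 0.061), HADH in eGFP against WT (0.05), DECR1 in rescue against KO (0.057) and DECR1 in the libraries labelled KO2_Rescue (0.0566) no longer passed, and 12 members passed in KO against WT with the replicate block as without it. Values listed at 0, as in 7 libraries for SLC25A20 and 3 for CPT1A, limit what can be said of those genes.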
